A study of Homo sapiens with 31 samples.

Results

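Unexposed Caco-2 cultures on Transwell inserts were compared between the ZnO set and the TiO2 set of a nanomaterial study, that is 4 ZnO-control arrays against 4 TiO2-control arrays, 8 of the 31 arrays of the series. The members are all Transwell arrays whose labels give the treatment as ZnO-control or TiO2-control medium, and the comparison runs over all 22395 genes named by a single-gene probe set. Caco-2 (HTB-37) comes from a human colorectal adenocarcinoma, and after long confluence its cells polarise into a layer that resembles enterocytes. Cells at passage 29 to 45 were seeded at about 75000 per cm2 on PET inserts of 1.12 cm2 with 0.4 µm pores and kept in static culture for 21 days. The apical side then received 500 µL of a control solution for 6 h. Each nanomaterial had its own control medium, a metal-free dispersion solution made up in supplemented DMEM. The other Transwell groups received 50 µg/mL TiO2 (3 arrays) or 10 µg/mL ZnO (4 arrays) for the same time. The chip control groups, with 4 arrays each, were the same line kept in a microfluidic chip under a flow of 100 µL/h and given the same 2 kinds of control medium. All groups share 1 cancer-derived line, and the labels do not say whether replicates were separate cultures, so p-values measure the spread between these arrays. The labels name no culture batch. Control medium, time of culture and any other difference between the ZnO set and the TiO2 set therefore cannot be told apart. In bulk RNA, fewer cells of a state and less RNA per cell cannot be told apart either.

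Metallothioneins hold zinc and copper through their many cysteines, and their genes are switched on by the zinc-sensing factor MTF1 through metal response elements. Heat shock proteins fold other proteins and are induced by the factor HSF1 when proteins unfold. Genes of DNA replication are driven by E2F factors as cells enter S phase, and a Caco-2 layer loses much of this activity as it differentiates. Genes of cholesterol synthesis are driven by SREBP2 when membrane sterol is low.

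The 8 control arrays had like overall distributions, with array medians of 3.256 to 3.316 on the log2 scale of RMA values. Pearson correlations over all genes ran from 0.988 to 0.992 within the TiO2 controls, from 0.989 to 0.992 within the ZnO controls and from 0.980 to 0.989 between the groups. The root mean within-group SD was 0.251 in the TiO2 controls and 0.243 in the ZnO controls. Of 13 measured markers of intestinal epithelium 1 was higher and 2 were lower in the ZnO controls (list median -0.02), and the mean of the list lay at 8.86 to 8.95 in the TiO2-control arrays and 8.77 to 8.98 in the ZnO-control arrays. Of 14 markers of stromal, endothelial and immune cells 5 had a mean below the median of every array in both groups, and the list mean lay at 4.49 to 4.64 and 4.47 to 4.59. CD68, a lysosomal protein of macrophages, was the only member of that list that passed, lower by a log2 difference of -0.42 ± 0.07 (SE). Where the mean of a gene over a group was under all of that group's array medians, the gene was taken as not shown above background there.

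The ZnO controls and TiO2 controls differed in 2981 of 22395 genes (13.3%) at an adjusted p below 0.05 (limma, Benjamini-Hochberg), of which 1387 (6.19%) were higher and 1594 (7.12%) were lower in the ZnO controls. Thus 46.5% of the passing genes were higher in the ZnO controls, and 59.5% were higher when each array was centred on its own median. Without TiO2-control replicate 1 the balance also turned, with 1421 higher and 1365 lower. Most differences were small. The median size among passing genes was 0.50 on the log2 scale, and only 65 higher and 92 lower genes differed at least 2-fold. The median over all genes was -0.01. The arrays of the groups did not overlap for 3959 of the 22395 genes, and for 2695 of the 2981 that passed. The largest rises and falls named below were picked from genes without overlap. Separate arrays in those genes follow from this choice and are no further evidence. List members named by smallest p were likely to have separate arrays as well, so the same holds for them. Metallothioneins, heat shock proteins, H/ACA box small nucleolar RNAs and ribosome biogenesis genes stood on the higher side. Genes of DNA replication, mitosis, cholesterol synthesis, glycolysis and the actin cytoskeleton stood on the lower side.

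**Figure D1:**
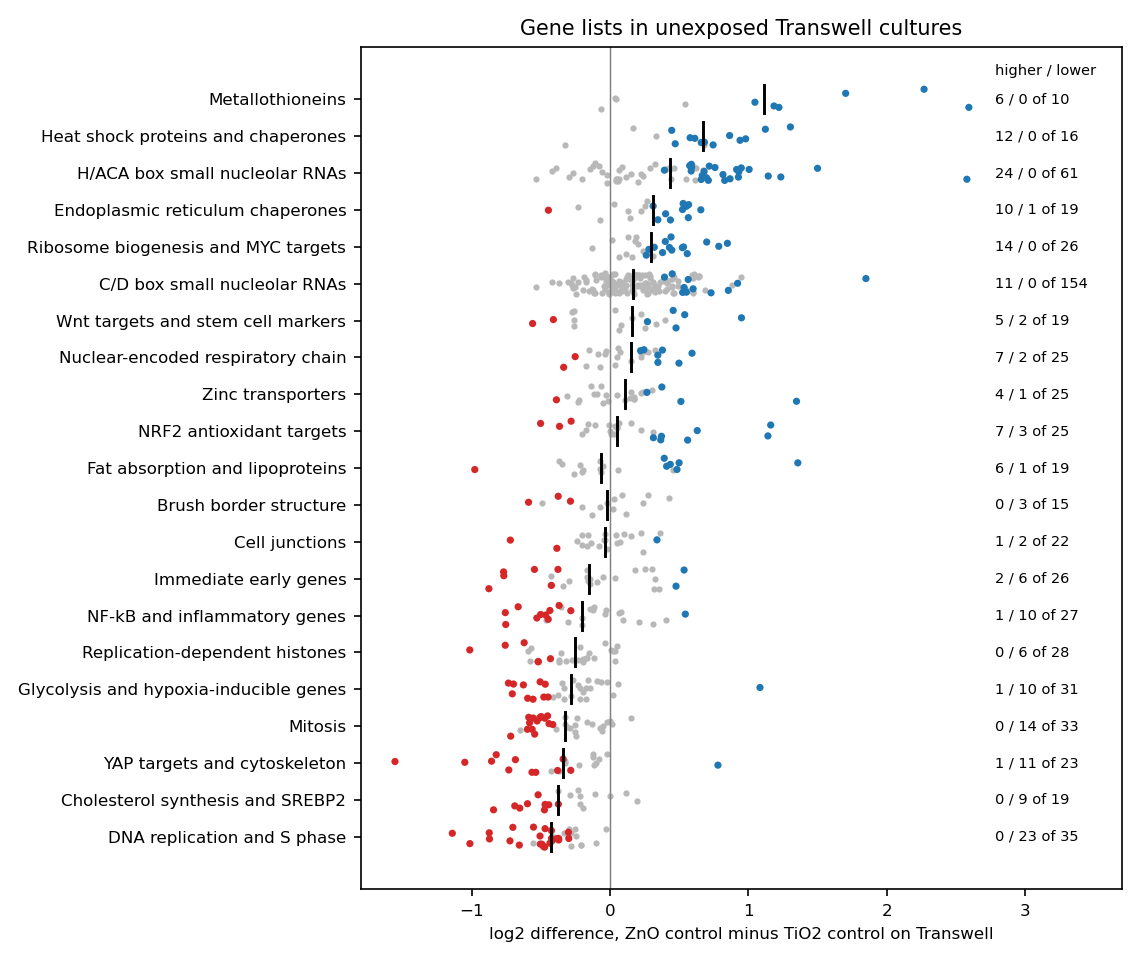
Log2 difference of ZnO control minus TiO2 control on Transwell for the members of 21 gene lists (x axis), 1 point per gene. Blue points passed higher, red points passed lower and grey points did not pass, black bars are list medians, and the numbers on the right count members that passed. Metallothioneins lie furthest to the right (median 1.12) and DNA replication furthest to the left (median -0.42).

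Metallothionein mRNA was higher in the ZnO controls. By label the dispersion solution of both control media was metal-free, and it was made up in supplemented DMEM. Of 10 measured metallothioneins 6 passed higher and 0 passed lower (6.19% of all genes passed higher), and the list median was 1.12. MT1X, a widely expressed member, read 8.67, 8.78, 8.67 and 8.53 in the TiO2-control arrays and 11.08, 10.97, 10.99 and 10.69 in the ZnO-control arrays. The groups lay far apart on every array. The difference of 2.27 ± 0.10 (SE), or 4.82-fold, had the smallest adjusted p of all genes (3.82e-08, limma). MT1G, an inducible member, read 3.65, 3.13, 3.30 and 3.43 against 5.74, 5.91, 6.37 and 5.86. It had the largest difference of all genes, 2.59 ± 0.18 or 6.04-fold (adjusted p = 2.16e-06, limma). Its TiO2-control values lay close to the array medians of 3.256 to 3.316, so the size of this difference is uncertain. MT2A, the most broadly expressed metallothionein, read 6.57, 6.35, 6.18 and 6.49 against 7.63, 7.73, 7.67 and 7.31, a difference of 1.19 ± 0.11. MT1H differed by 1.70 ± 0.23 and MT1F by 1.05 ± 0.14. The TiO2-control values of MT1H, 3.04 to 3.97, also lay close to the array medians, so the size of its difference is uncertain. MT1M, the other member that passed, was not shown above background in the TiO2 controls, so its difference has no measured size, and it read 3.09 to 4.15 in the ZnO controls. The members MT1B, MT1E, MT3 and MT4 did not pass, with differences of 0.04, 0.54, 0.04 and -0.06. MT1CP, a metallothionein pseudogene outside the list, was higher by 1.68 ± 0.17. Metallothionein genes are nearly identical in sequence, so that probes of one member can bind another and single values are uncertain.

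Zinc transporters moved less. Of 25 measured members of a list of SLC30 and SLC39 transporters, which also holds MTF1, 4 passed higher and 1 passed lower. The list median was 0.11. SLC30A2, which moves zinc into vesicles, read 5.31, 5.60, 5.61 and 5.32 in the TiO2 controls and 6.79, 6.97, 6.77 and 6.70 in the ZnO controls, with no overlap and a difference of 1.35 ± 0.11 (2.55-fold). The importers SLC39A14 and SLC39A7 were higher by 0.51 ± 0.08 and 0.37 ± 0.08. SLC39A10, another importer, was lower by -0.39 ± 0.11 (adjusted p = 0.0254, limma). It no longer passed without TiO2-control replicate 1 (-0.32, adjusted p = 0.0715), ZnO-control replicate 2 (-0.37, 0.0638) or ZnO-control replicate 3 (-0.32, 0.0804). SLC30A1, the zinc exporter of the plasma membrane, had a difference of 0.22 ± 0.09 (adjusted p = 0.141, limma), with overlapping arrays. MTF1 itself had a difference of 0.24 ± 0.10 (adjusted p = 0.154), also with overlap. Of the zinc transporters named, SLC30A2 thus differed most, while the exporter and the zinc sensor did not pass.

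The bases before the start of MT2A, MT1X and SLC30A2 are shown as examples of passing metal-handling genes, chosen after their matches had been seen. MT1H, which differed more than MT2A and held 8 matches, is not shown. The sequences are from RefSeq on GRCh38.p14, on the strand of the gene, and each covers the 200 bases before the start. They lie at chr16:56608384-56608583 on the plus strand for MT2A, at chr16:56682270-56682469 on the plus strand for MT1X and at chr1:26046119-26046318 on the minus strand for SLC30A2. Capitals mark matches to the core of the metal response element, searched as TGCACNC and TGCGCNC on both strands, with overlapping matches joined.
MT2A: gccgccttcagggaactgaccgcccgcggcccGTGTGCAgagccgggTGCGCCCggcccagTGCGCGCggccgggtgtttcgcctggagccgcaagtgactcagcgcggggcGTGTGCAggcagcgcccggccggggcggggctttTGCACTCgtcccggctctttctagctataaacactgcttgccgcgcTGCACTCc
MT1X: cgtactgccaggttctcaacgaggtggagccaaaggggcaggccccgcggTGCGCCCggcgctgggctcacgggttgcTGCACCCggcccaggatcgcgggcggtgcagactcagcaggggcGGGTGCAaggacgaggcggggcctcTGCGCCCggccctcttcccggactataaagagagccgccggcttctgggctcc
SLC30A2: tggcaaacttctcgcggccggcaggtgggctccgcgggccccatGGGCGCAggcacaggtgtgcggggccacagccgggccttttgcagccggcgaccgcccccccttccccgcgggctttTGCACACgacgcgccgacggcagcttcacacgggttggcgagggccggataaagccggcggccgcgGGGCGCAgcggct
These windows held 6, 4 and 3 separate matches. Over 35116 promoters, each searched in the 250 bases before its start, 24.8% held at least 1 match and 1.05% held at least 3. Promoter sequence was found for 5 of the 10 metallothioneins, and each of the 5 held at least 3 matches, also MT1B and MT4, which did not pass. The 22 members of the zinc transporter list that were found, MTF1 among them, had 31 listed promoters. Of these promoters 11 held at least 1 match. A match is a description of letters and not of a bound site.

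Cytosolic chaperones were higher in the ZnO controls. Of 16 measured heat shock proteins and co-chaperones 12 passed higher and 0 passed lower, with a list median of 0.67. HSPH1, a nucleotide exchange factor of HSP70, read 10.26, 9.91, 9.87 and 10.04 in the TiO2 controls and 11.04, 11.19, 11.13 and 11.20 in the ZnO controls, a difference of 1.12 ± 0.10 (2.18-fold, adjusted p = 1.39e-05, limma). HSPB1, a small heat shock protein that holds unfolded clients, read 8.46, 8.30, 8.49 and 8.60 against 9.44, 9.35, 9.47 and 9.36. Neither gene had overlapping arrays. HSPA1L, an HSP70 relative, was higher by 1.30 ± 0.15 and DNAJB1, the HSP40 partner induced with HSP70, by 0.86 ± 0.08. HSP90AA1, the inducible HSP90, was higher by 0.66 ± 0.09 and its co-chaperone CHORDC1 by 0.68 ± 0.15.

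The bases before the starts of CHORDC1 and HSP90AA1 follow as examples of passing chaperone genes with a match to the heat shock element. They were chosen after the matches had been seen. Each covers 200 bases on the minus strand of GRCh38.p14, at chr11:90223050-90223249 and chr14:102087045-102087244, and for HSP90AA1 the downstream of 2 listed starts is used. Capitals mark matches to 3 units of the heat shock element. These were searched as alternating GAA and TTC units with any NN between them, starting with either unit. Both strands were searched and overlapping matches were joined, so the CHORDC1 stretch is longer than 3 units.
CHORDC1: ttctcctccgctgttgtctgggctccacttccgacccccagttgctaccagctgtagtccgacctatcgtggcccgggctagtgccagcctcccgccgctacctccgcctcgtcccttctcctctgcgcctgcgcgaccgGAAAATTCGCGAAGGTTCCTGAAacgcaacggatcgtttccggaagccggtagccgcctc
HSP90AA1: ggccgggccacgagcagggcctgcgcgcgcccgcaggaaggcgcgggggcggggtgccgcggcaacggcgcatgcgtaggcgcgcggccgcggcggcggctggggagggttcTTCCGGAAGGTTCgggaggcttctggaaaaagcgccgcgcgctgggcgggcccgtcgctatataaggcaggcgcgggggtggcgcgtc
The 15 heat shock genes found had 24 listed promoters, of which 4 held a match (1 each of CHORDC1, HSP90AA1, HSP90AB1 and HSPA6), against 0.441% of all promoters. The other 11 genes held none of these letters in the window searched.

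Chaperones of the endoplasmic reticulum were also higher, by less. Of 19 members 10 passed higher and 1 passed lower, with a list median of 0.31. HSPA5, the HSP70 of this compartment, read 11.61, 11.42, 11.21 and 11.52 in the TiO2 controls and 11.98, 12.08, 11.96 and 12.02 in the ZnO controls, so that the groups did not overlap at a difference of 0.57 ± 0.09. MANF, DNAJB11 and HYOU1, which assist folding there, were higher by 0.55 ± 0.08, 0.57 ± 0.10 and 0.53 ± 0.09. Genes of the integrated stress response were split, with 5 of 25 higher and 4 lower. TRIB3, a pseudokinase induced in that response, was lower by -0.82 ± 0.09, while SLC7A11, also a member of this list and given below, was higher. Of 25 targets of the oxidant-sensing factor NRF2 7 were higher and 3 lower (median 0.05). HMOX1, the heme-degrading enzyme, read 7.52, 7.45, 7.66 and 7.31 against 8.80, 8.53, 8.67 and 8.58, a difference of 1.16 ± 0.09 (adjusted p = 6.16e-06, limma). SLC7A11, the cystine importer, differed by 1.14 ± 0.23, AKR1C3 by 0.56 ± 0.11 and the sulfiredoxin SRXN1 by 0.63 ± 0.13.

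**Figure D2:**
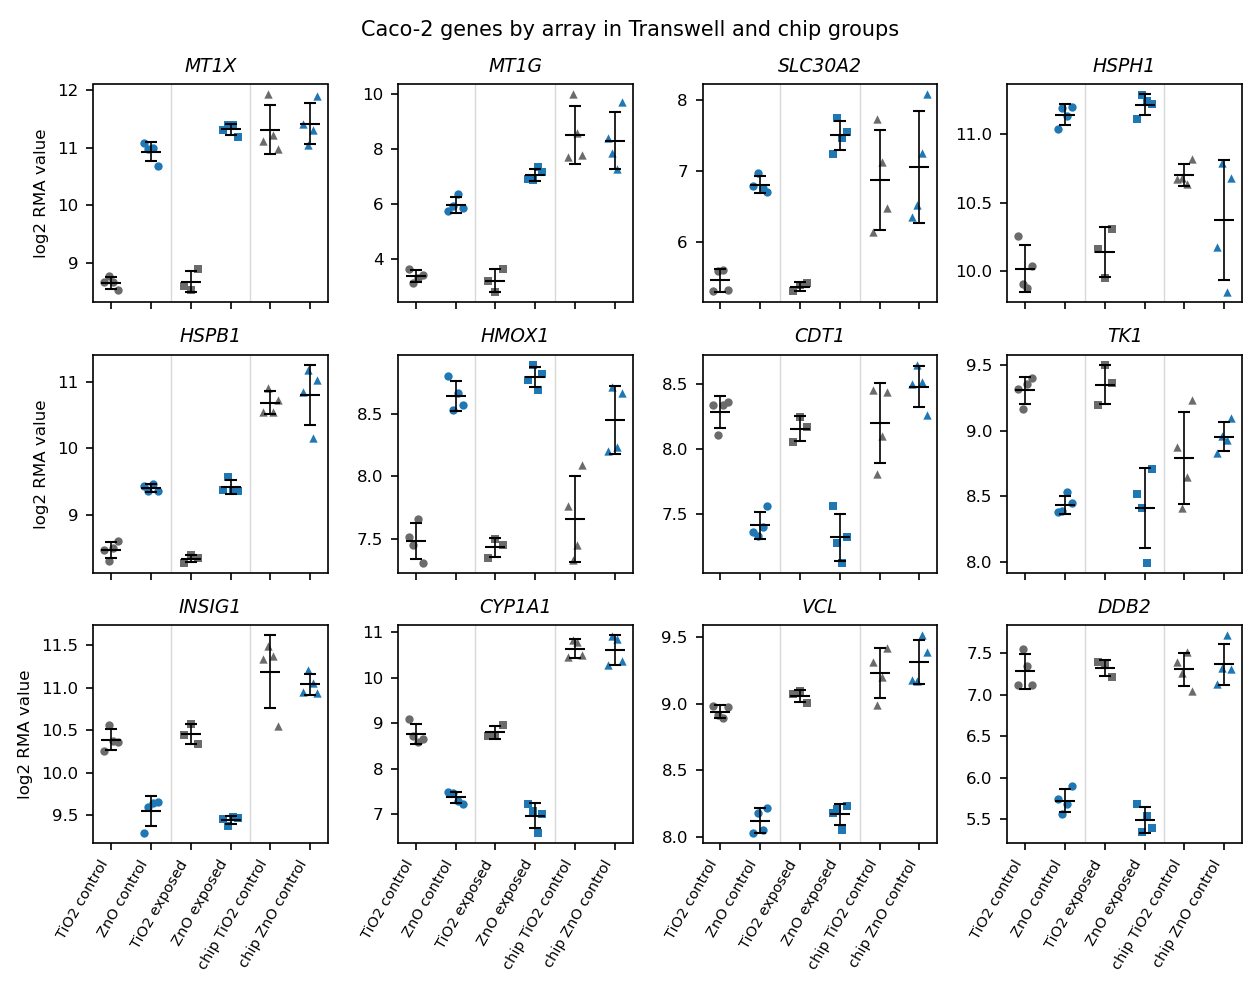
Log2 RMA values of 12 genes on each array (points) in Transwell controls, Transwell exposed cultures and chip controls; grey is the TiO2 set and blue the ZnO set, and bars are the mean ± SD (n = 4, and n = 3 for TiO2 exposed). In the first 2 columns of each panel the control groups do not overlap. The means of both chip control groups of MT1X lie above both Transwell control groups and nearer to the ZnO controls. Those of DDB2 lie near the Transwell TiO2 controls.

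Genes of DNA replication were lower in the ZnO controls. Of 35 measured members 0 passed higher and 23 passed lower (7.12% of all genes passed lower), with a median of -0.42 and no member above 0. CDT1, which loads the replicative helicase at origins, read 8.33, 8.10, 8.34 and 8.36 in the TiO2 controls and 7.36, 7.33, 7.40 and 7.56 in the ZnO controls, a difference of -0.87 ± 0.10 (adjusted p = 0.000114, limma). TK1, the thymidine kinase of S phase, read 9.31, 9.17, 9.35 and 9.40 against 8.38, 8.39, 8.53 and 8.45. Both genes were lower on every ZnO-control array. ORC1, the largest subunit of the origin recognition complex, was lower by -0.70 ± 0.09 and CHAF1B, a histone chaperone of the replication fork, by -1.01 ± 0.15. MCM6, a helicase subunit, is named because its promoter is shown and was lower by -0.50 ± 0.09. E2F7, an atypical E2F that represses replication genes and is itself induced by E2F, was lower by -1.04 ± 0.10. Of 28 replication-dependent histone genes 6 were lower and 0 higher, led by H2BC21 (-1.01 ± 0.16), and 7 were not shown above background in either group.

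The 200 bases before the MCM6 start are printed as an example of a replication gene with repeated E2F matches, for which it was picked. They lie on the minus strand at chr2:135876444-135876643 of GRCh38.p14, and capitals mark the E2F site, searched as TTT, any NN and then CGC, on either strand with overlaps joined.
MCM6: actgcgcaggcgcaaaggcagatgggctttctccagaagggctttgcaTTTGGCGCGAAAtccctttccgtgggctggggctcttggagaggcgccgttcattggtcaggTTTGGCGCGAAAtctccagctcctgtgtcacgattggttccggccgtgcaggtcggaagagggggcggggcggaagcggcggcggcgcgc
This promoter held 2 stretches, each made of matches on both strands, as did 0.35% of all promoters with at least 2. At least 1 match was found in 16 of the 41 listed promoters of 32 replication genes and in 5.92% of all promoters. Of the other replication genes named above, CDT1 held 2 matches, while ORC1, CHAF1B and the listed starts of TK1 held 0.

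Mitotic genes followed the same direction at smaller size. Of 33 members 0 passed higher and 14 passed lower, with a median of -0.32. PLK1, a kinase of mitotic entry and exit, read 10.32, 10.04, 10.02 and 9.95 against 9.34, 9.45, 9.55 and 9.68, which is lower on every ZnO-control array (-0.58 ± 0.10). TTK, a kinase of the spindle checkpoint, was lower by -0.56 ± 0.09, NUSAP1, a spindle protein, by -0.51 ± 0.09 and CDC25C, a phosphatase that starts mitosis, by -0.53 ± 0.10. Of 21 p53 targets 4 were lower and 1 higher. DDB2, which recognises ultraviolet damage in DNA, read 7.12, 7.55, 7.35 and 7.12 in the TiO2 controls and 5.74, 5.57, 5.68 and 5.90 in the ZnO controls. The groups were 2.95-fold apart (-1.56 ± 0.12, adjusted p = 2.91e-06, limma). DDB2 was among the largest falls, which were picked from genes without overlap. PLK2, another p53 target, was higher by 0.80 ± 0.16.

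Cholesterol synthesis genes were lower in the ZnO controls, with 9 of 19 members passing lower and 0 higher (median -0.37). INSIG1, which holds SREBP2 in the endoplasmic reticulum and is itself an SREBP target, read 10.26, 10.56, 10.37 and 10.37 against 9.29, 9.60, 9.65 and 9.66, a difference of -0.84 ± 0.10 (adjusted p = 0.000116, limma). ZnO-control replicate 1 was the lowest, and no array overlapped. MSMO1 and HMGCS1, enzymes of the pathway, were lower by -0.65 ± 0.09 and -0.60 ± 0.09, and STARD4, a sterol carrier, by -0.69 ± 0.09. Genes of fatty acid synthesis were split (2 of 16 higher and 3 lower). GPAM, the mitochondrial enzyme that starts triglyceride synthesis, was higher by 0.98 ± 0.09. Of 19 genes of fat absorption 6 were higher and 1 lower while the list median was -0.06. FABP2, the intestinal fatty acid binding protein, read 6.04, 5.88, 5.19 and 5.67 against 7.02, 7.14, 7.09 and 6.96 (1.36 ± 0.15). ACSL5, SLC27A4 and PLIN2, which activate, import and store fatty acids, were higher by 0.44 ± 0.08, 0.50 ± 0.10 and 0.39 ± 0.08.

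Of 31 genes of glycolysis and hypoxia 10 were lower and 1 higher (median -0.28). BNIP3L, a mitophagy receptor, was lower by -0.73 ± 0.11, PFKFB4 and PFKP, which act at the phosphofructokinase step, by -0.70 ± 0.13 and -0.59 ± 0.12. MIR210HG, the host transcript of a hypoxia-induced microRNA and outside the list, read 7.18, 7.99, 7.90 and 7.04 in the TiO2 controls and 5.59, 5.74, 5.88 and 6.11 in the ZnO controls (-1.70 ± 0.28). CA12, a carbonic anhydrase that hypoxia also induces, went the other way, at 7.07, 7.11, 7.04 and 7.27 against 8.14, 8.14, 8.24 and 8.29 (1.08 ± 0.09). Of 25 nuclear-encoded respiratory chain genes 7 were higher and 2 lower (median 0.15), led by COX7A2 at 0.59 ± 0.11.

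Targets of the mechanosensitive coactivator YAP and cytoskeletal genes were lower, with 11 of 23 members lower and 1 higher (median -0.34). VCL, the focal adhesion protein vinculin, read 8.99, 8.91, 8.89 and 8.98 against 8.03, 8.18, 8.05 and 8.22 (-0.82 ± 0.08, adjusted p = 1.57e-05, limma). ANKRD1, a YAP target, was lower by -1.55 ± 0.19, the actin-binding TAGLN by -1.05 ± 0.12 and the myosin light chain MYL9 by -0.68 ± 0.07. Of 26 immediate early genes, which respond to growth signals within minutes, 6 were lower and 2 higher. FOS and EGR1 were lower by -0.87 ± 0.09 and -0.77 ± 0.13, whereas DUSP1 and MYC were higher by 0.54 ± 0.11 and 0.48 ± 0.10.

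Of 27 NF-kB and inflammatory genes 10 were lower and 1 higher (median -0.20), and 6 were not shown above background in either group. CCL20, a chemokine that attracts dendritic cells and lymphocytes, was lower by -0.76 ± 0.13, TNFAIP3, a feedback inhibitor, by -0.50 ± 0.10, ICAM1 by -0.46 ± 0.09 and IRF1 by -0.66 ± 0.15. The count rested on single arrays. It fell from 10 to 5 lower members without TiO2-control replicate 2 or ZnO-control replicate 1, and to 6 without TiO2-control replicate 4 or ZnO-control replicate 2.

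Xenobiotic genes gave single large differences rather than a list in 1 direction. CYP1A1, the best-known target of the aryl hydrocarbon receptor, read 9.10, 8.72, 8.59 and 8.66 in the TiO2 controls and 7.50, 7.46, 7.30 and 7.23 in the ZnO controls, 2.63-fold apart with no overlap (-1.39 ± 0.14, adjusted p = 3.94e-05, limma). Of 8 targets of this receptor 3 were lower and 0 higher. Of 28 genes of drug metabolism and efflux 4 were higher and 4 lower. CYP3A5 was lower by -0.96 ± 0.14, and CYP2B6, the sulfotransferase SULT2A1 and the efflux pump ABCB1 were higher by 0.99 ± 0.18, 0.73 ± 0.11 and 0.55 ± 0.10.

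Small nucleolar RNAs guide the chemical modification of ribosomal RNA. Of 61 members of the H/ACA box class 24 passed higher in the ZnO controls and 0 lower (median 0.43). Of 154 members of the C/D box class 11 passed higher and 0 lower (median 0.17), a share of higher calls near the 6.19% of all genes. SNORA38B read 7.27, 7.17, 7.10 and 7.32 in the TiO2 controls and 9.72, 10.01, 9.85 and 9.60 in the ZnO controls, a 5.98-fold difference (2.58 ± 0.16, adjusted p = 6.39e-07, limma). SNORA60, SNORA23 and SNORA50A were higher by 0.93 ± 0.09, 0.95 ± 0.12 and 1.01 ± 0.12, and SNORA72 by 1.50 ± 0.24. SNORD9 and SNORD94 of the C/D class were higher by 0.92 ± 0.20 and 0.45 ± 0.09. Of the 154 C/D box members 74 were not shown above background in either group, against 6 of the 61 H/ACA members. The protein machinery of ribosome assembly was higher too, with 14 of 26 genes higher and 0 lower (median 0.30). BYSL, RRP12, POLR1B and NIP7 were higher by 0.79 ± 0.12, 0.85 ± 0.13, 0.70 ± 0.11 and 0.45 ± 0.08. This count fell to 9 without TiO2-control replicate 3, ZnO-control replicate 2 or ZnO-control replicate 4. Of 17 ribosomal proteins 2 were higher and 0 lower.

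Other classes of short RNA were looked at after these values had been seen. Of 20 small Cajal body RNAs, which guide modification of spliceosomal RNA, 7 were higher and 0 lower, with SCARNA3 at 1.54 ± 0.27. Of 447 copies of 5S ribosomal RNA 12 were higher and 3 lower, and of 143 spliceosomal small nuclear RNAs 9 were higher and 1 lower. Of 1018 microRNA hairpins 14 were higher and 8 lower. The share of higher calls was near the 6.19% of all genes for small nuclear RNAs. For 5S copies and microRNA hairpins it was below that. Not shown above background in either group were 337 of the 5S copies, 111 of the small nuclear RNAs and 671 of the hairpins. Of 12 host genes of small nucleolar RNAs 0 passed in either direction, and 2 were higher and 1 lower at an unadjusted p below 0.05 (limma). RN5S199, a 5S copy, was higher by 1.72 ± 0.18. SNORD115-30, MIR626 and SCARNA1 passed higher but were not shown above background in the TiO2 controls, and RN5S301 passed lower but was not shown above background in the ZnO controls, so these differences have no measured size.

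Among the remaining genes with the largest rises, TMIGD1, an adhesion protein of differentiated intestinal and kidney epithelium, read 3.63, 3.74, 3.51 and 3.52 against 5.85, 5.39, 5.54 and 5.87 (2.06 ± 0.18, 4.18-fold). TMED6, a cargo receptor of the secretory pathway, was higher by 1.89 ± 0.16, TDO2, which degrades tryptophan, by 1.65 ± 0.18 and RASD1, a small GTPase induced by glucocorticoid, by 1.48 ± 0.19. TiO2-control values of TMIGD1 and TDO2 lay close to the array medians of 3.256 to 3.316, so the sizes of their differences are uncertain. Of 19 Wnt targets and stem cell markers 5 were higher and 2 lower (median 0.16). AXIN2, a feedback inhibitor and common Wnt readout, differed by 0.95 ± 0.11, ZNRF3 by 0.54 ± 0.10 and SOX9 by 0.46 ± 0.09, whereas PROM1 was lower by -0.41 ± 0.08. KRT20, a keratin of mature enterocytes, was higher by 0.73 ± 0.10 and was the one higher member of the epithelial list. Its lower members were the surface antigen GPA33 (-0.44 ± 0.12) and the intestinal transcription factor CDX2 (-0.36 ± 0.11), named because they are few. GPA33 no longer passed when any one of TiO2-control replicates 1, 2 and 4 or ZnO-control replicates 1, 2 and 3 was left out (-0.43 to -0.37, adjusted p = 0.0506 to 0.0785, limma). CDX2 no longer passed without any one array except TiO2-control replicate 1 (-0.39 to -0.34, adjusted p = 0.0519 to 0.0888, limma).

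Among the largest falls, PIM1, a growth-promoting kinase induced by cytokines, read 8.75, 8.90, 8.63 and 8.82 against 7.16, 7.35, 7.26 and 7.33 (-1.50 ± 0.09, adjusted p = 7.72e-07, limma). TFAP2C, a transcription factor of the AP-2 family, read 7.65, 7.78, 7.69 and 7.73 against 6.34, 6.15, 5.88 and 6.30 (-1.55 ± 0.11). WIPF3, a regulator of actin assembly, lay between 7.86 and 8.02 on the TiO2-control arrays and between 6.48 and 6.63 on the ZnO-control arrays (-1.42 ± 0.08). In these 3 genes the arrays of a group lay closer together than the groups by a wide margin. Separate arrays and a large difference were both part of the rule for naming them, so this margin is no further evidence. SLC10A1, a sodium-dependent bile acid importer, was lower by -1.46 ± 0.15, the ubiquitin ligase RNF186 by -1.56 ± 0.21, the transcription factor KLF7 by -1.52 ± 0.20 and the phospholipid flippase ATP8B2 by -1.67 ± 0.23. ERICH4 (-1.86 ± 0.23), LOC154761 (-1.81 ± 0.33) and ART4 (-1.63 ± 0.20) were also among them. LOC154761 lay close to the array medians in the ZnO controls, so the size of its difference is uncertain. RASA4B passed lower but was not shown above background in the ZnO controls, so its difference has no measured size.

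Of 15 brush border genes, which shape the absorptive surface of the enterocyte, 0 were higher and 3 lower, led by the myosin MYO1D (-0.59 ± 0.08). Of 16 digestive hydrolases 0 were higher and 1 was lower, the peptidase XPNPEP2 (-0.60 ± 0.10), while 2 were higher and 2 lower at an unadjusted p below 0.05 (limma). Of 22 junction genes 1 was higher and 2 were lower, led by CLDN3 (-0.72 ± 0.12). Of 18 sugar and amino acid transporters 4 were higher and 2 lower.

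Exposed Transwell cultures of the 2 sets, on 7 separate arrays, were set beside the controls, and their difference also holds the difference between the ZnO and TiO2 exposures. In them 3386 genes passed (15.1%), 1692 higher (7.56%) and 1694 lower (7.56%) in the ZnO set. Of the genes higher in the ZnO controls 971 were also higher in ZnO-exposed cultures, which is 70.0% of the control list and 57.4% of the exposed list. Of the lower genes 1082 were lower in both, or 67.9% and 63.9%, and 2 genes passed in opposite directions. Among the 2981 genes that passed in the controls 97.3% had the same sign in exposed cultures. The differences correlated with r = 0.68 over all genes and 0.92 over the passing genes. These are correlations across genes, which are not independent replicates, on arrays normalised together, and the control and exposed cultures of a set may share more than the medium.

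Whether the difference between the sets changed with exposure was tested directly. The test gave 0 genes (0%) by limma, with a smallest adjusted p of 0.305 and 1134 genes at an unadjusted p below 0.05. MT1G differed by 2.59 ± 0.18 in controls and 3.85 ± 0.20 in exposed cultures, and the increase of 1.26 ± 0.27 had an adjusted p of 0.593. The metallothionein median was 1.12 in controls and 1.89 in exposed cultures, and that of DNA replication was -0.42 and -0.49. Immediate early genes had medians of -0.15 and 0.06, with EGR1 at -0.77 and -0.16. A p that misses the threshold does not show that the set difference was the same in both.

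**Figure D3:**
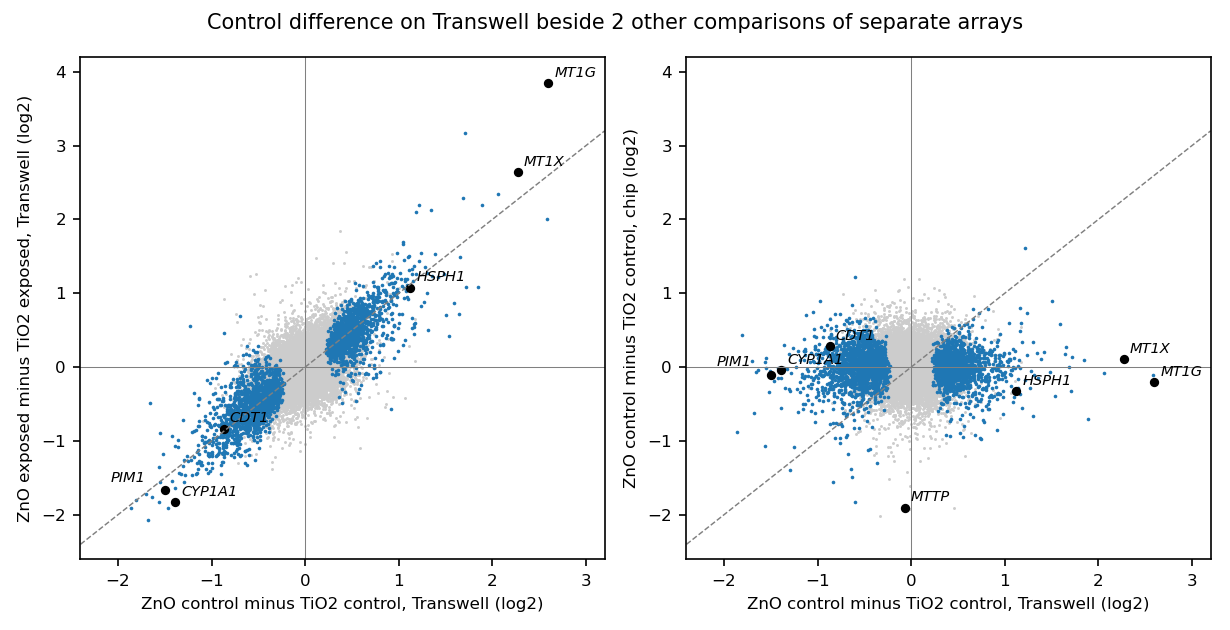
Log2 difference of ZnO control minus TiO2 control on Transwell (x axis) against the ZnO minus TiO2 difference in exposed Transwell cultures (left) and against ZnO control minus TiO2 control in the chip (right), 1 point per gene; blue genes passed in the Transwell controls and the dashed line marks equal values. Blue genes follow the line on the left (r = 0.92) and spread along the horizontal on the right (r = -0.004).

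The same 2 kinds of control medium were compared in the chip. Chip TiO2-control replicate 4 was doubted from earlier results of these data. Its mean correlation with the other arrays of its group was 0.982, against 0.984, 0.984 and 0.987 for the others, and each count is given with and without it. Chip controls spread more than Transwell controls (root mean SD 0.305 and 0.303). In the chip 13 genes passed (0.0580%), 3 higher and 10 lower, with 2171 at an unadjusted p below 0.05. Without that array 317 passed, 133 higher and 184 lower. The 3 largest were lower in the ZnO controls: MTTP, which loads lipid onto lipoproteins (-1.90 ± 0.37), TUBAL3 (-1.42 ± 0.25) and the fructose transporter SLC2A5 (-1.29 ± 0.21). Of the 13 genes 4 also passed on Transwell (CDA, FMOD, LOC100128988 and SLC2A5), named because the count is small. Across the genes that passed on Transwell the correlation with the chip difference was -0.004, and 48.3% had the same sign. Without the doubted array these were 0.108 and 54.0%, with 71 genes passing in the same direction and 31 in opposite directions.

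The test of the difference between the systems found 613 genes (2.74%), of which 535 were among the 2981 Transwell genes (17.9%). Without chip TiO2-control replicate 4 it found 734, of which 554 were among them (18.6%). For the other genes that passed on Transwell a different size in the chip was not shown. The largest higher differences were those of MT1G (2.80 ± 0.60), SNORA38B (2.68 ± 0.75), TMED6 (2.59), APOA4 (2.37), MT1X (2.17) and TMIGD1 (2.15). SNORA38B and WEE2-AS1 no longer passed without the doubted array (adjusted p = 0.0764 and 0.0712, limma). The largest lower differences were those of LOC154761, VGLL1, IFI6, E2F7, MIR210HG and WEE2-AS1. APOA4, an apolipoprotein of chylomicrons, and WEE2-AS1 did not pass on Transwell alone.

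Levels in the chip were set beside those on Transwell. MT1X stood at 8.66 ± 0.10 (SD, n = 4) in the Transwell TiO2 controls and 10.93 ± 0.17 in the Transwell ZnO controls, and at 11.31 and 11.42 in the chip TiO2 and ZnO controls. DDB2 stood at 7.28 ± 0.21 and 5.72 ± 0.14 on Transwell and at 7.31 and 7.37 in the chip. The chip means of MT1X lay above both Transwell control groups and nearer to the ZnO controls. Those of DDB2 lay beside the Transwell TiO2 controls. Of the other metallothioneins, MT1G and MT1H lay further above both Transwell groups in the chip. MT1G stood at 3.38 and 5.97 on Transwell and at 8.51 and 8.30 in the chip, and MT1H at 3.63 and 5.34 and at 8.31 and 7.98. CYP1A1 stood at 8.77 and 7.37 on Transwell and at 10.64 and 10.60 in the chip, above both. HMOX1 was higher in the ZnO controls on Transwell by 1.16. Its chip difference of 0.80 did not pass (adjusted p = 0.0852, and 0.00582 without the doubted array), and the difference between the systems had an adjusted p of 0.519 (limma).

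**Figure D4:**
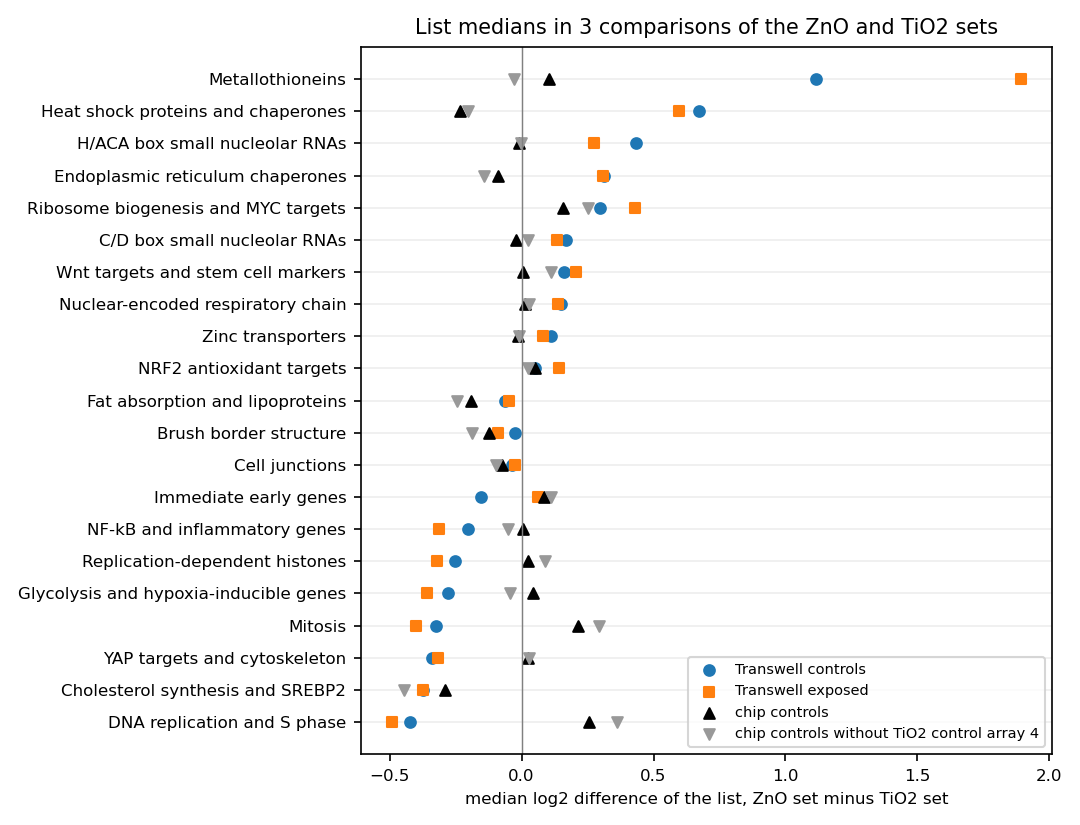
Median log2 difference of the ZnO set minus the TiO2 set (x axis) for 21 gene lists in Transwell controls (circles), Transwell exposed cultures (squares) and chip controls with and without TiO2-control replicate 4 (triangles). Circles and squares lie together for most lists, and the chip triangles of DNA replication lie at 0.26 and 0.36 on the other side of 0.

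The chip gave other list medians. The metallothionein median was 0.10 in the chip (-0.03 without the doubted array), that of heat shock genes -0.24 (-0.20) and that of DNA replication 0.26 (0.36). By gene, the test between systems passed for 3 metallothioneins, for 9 of the 16 heat shock genes and for 13 of the 35 replication genes, all in the Transwell direction. Without the doubted array it passed for 4, 9 and 18. Cholesterol synthesis had a chip median of -0.29 (-0.45). In the chip 0 of its 19 genes passed, with 10 lower at an unadjusted p below 0.05 (limma), and 6 passed lower without the doubted array. In the test between systems 0 passed, with 1 higher and 1 lower at an unadjusted p below 0.05 (limma), and 1 passed higher without that array. STARD4 differed by -0.69 on Transwell and by -0.64 in the chip, where it did not pass (adjusted p = 0.247, and 0.00933 without that array). Some lists lay further from 0 in the chip than on Transwell, such as the integrated stress response (-0.03 on Transwell and -0.31 in the chip), fat absorption (-0.06 and -0.19) and brush border structure (-0.02 and -0.12).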

How the data were processed

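Total RNA was measured on Affymetrix whole-transcript arrays, from 100 ng of labelled material, per the labels' protocols. The authors deposited log2 values. Per the submitters' processing notes they used RMA. The RMA version was not given in the sources used here, nor were array annotation and genome build. Because this method corrects background, quantile-normalises and summarises probe sets, a shift shared by all genes is removed. Of 53617 probe sets 23871 had 1 gene, 1842 had several and 27904 had none listed in the platform annotation. Symbols of 22569 probe sets were updated by gene identifier, and 632 genes had several probe sets. This left 22395 genes.

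Differences were fitted with limma 3.58.1 in R 4.3.3 (lmFit and eBayes, 11 residual df) over the 4 Transwell groups, and over all 8 groups for chip and between-system contrasts, with Benjamini-Hochberg adjustment over all genes and a threshold of 0.05. Over 22395 genes simulated for the control comparison, 41 of 100 changed by 0.5 and 80 of 100 changed by 1 were recovered. There were 5 false calls among the unchanged genes. The simulated noise was independent and normal with the SD of each gene, without a culture effect. Far fewer genes were changed than the 2981 that passed, so recovery in the data can differ. The number of arrays limits the precision.

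Named genes were up to 15 rises and 15 falls with separate arrays and the higher group above its array medians, up to 4 members per list by smallest p, other members of small families, and up to 6 genes each way between systems; genes whose calls were lost without 1 array were mostly left out. Members and lists were chosen with earlier results of these data known. Replicate numbers did not pair arrays (correlations of deviations -0.005, -0.074, 0.093 and -0.139). Alternatives for the control comparison changed the samples fitted, replicate block, prior, weights, scaling, filter and probe sets. They also left out each Transwell control array in turn. Fewer alternatives were run for the other contrasts, where the only array left out was chip TiO2-control replicate 4. Promoters came from RefSeq.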

Additional observations from a re-analysis of the deposited data

Results flagged for a closer look

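In 17 of 242 groups of 4 control arrays, over the 121 genes checked, a single array lay far from the other 3. The value given is its gap to the nearest array as a share of the group's range, and chance marks about 1 in 20 groups. In TiO2-control replicate 1 this held for TMED6 0.845 and ERICH4 0.911. In TiO2-control replicate 2 this held for SCARNA1 0.841 and CDT1 0.908. In TiO2-control replicate 3 this held for SCARNA3 0.921, TTK 0.915 and GPA33 0.873. In TiO2-control replicate 4 this held for WEE2-AS1 0.956. In ZnO-control replicate 1 this held for MIR626 0.844, TRIB3 0.962, H1-2 0.849, INSIG1 0.841, IRF1 0.929 and XPNPEP2 0.933. In ZnO-control replicate 2 this held for RASA4B 0.928. In ZnO-control replicate 3 this held for IFI6 0.982 and DUSP1 0.859.

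For 55 of these genes the difference between control groups on Transwell and that in the chip differed at an adjusted p below 0.05 (limma), and for 51 of them also without chip TiO2-control replicate 4, the exceptions being SNORA38B, WEE2-AS1, HSPB1 and ABCB1. The values are the log2 difference on Transwell minus that in the chip. In metal handling they were MT1G 2.80, MT1X 2.17, MT1CP 1.69, MT2A 0.85, SLC39A14 0.90 and SLC39A7 0.56. For chaperones and SLC7A11 they were HSPA1L 1.97, HSPH1 1.45, HSPB1 0.82, HSP90AA1 0.70, HSPA5 0.78, MANF 0.76, DNAJB11 0.62, HYOU1 0.60 and SLC7A11 1.30. For lipid, drug and carbonic anhydrase genes they were SULT2A1 1.70, CA12 1.56, FABP2 1.51, CYP2B6 1.08, GPAM 1.08 and ABCB1 0.81. Other genes with a positive value were SNORA38B 2.68, TMED6 2.59, APOA4 2.37, TMIGD1 2.15, SCARNA3 1.93, RASD1 1.54, TDO2 1.38 and BYSL 0.92. For cell cycle and DNA damage genes they were E2F7 -1.79, CHAF1B -1.43, CDT1 -1.15, TK1 -1.04, ORC1 -1.03, PLK1 -0.89, NUSAP1 -0.79 and DDB2 -1.62. For cytoskeletal and immediate early genes they were ANKRD1 -1.68, TAGLN -1.13, FOS -1.11, EGR1 -0.93, VCL -0.90, MYL9 -0.66 and MYO1D -0.47. The remaining values were LOC154761 -2.24, MIR210HG -1.78, ART4 -1.59, TFAP2C -1.54, PIM1 -1.40, WIPF3 -1.41, VGLL1 -1.88, IFI6 -1.82, WEE2-AS1 -1.71, PFKP -0.81 and CYP1A1 -1.36.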

How the results depend on the processing

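None of the 172 listed genes that passed turned its direction under the alternatives run for them. These genes were chosen from the same data for large differences or small p, so a turn was unlikely in advance. A changed prior, an intensity trend, other groups in the fit, the replicate block and the bright-gene filter leave each gene's log2 difference as it was. These settings cannot turn a direction. The balance of higher and lower genes turned under median centring (1849 higher, 1261 lower) and without TiO2-control replicate 1 (1421 higher, 1365 lower). Of 41 list medians 14 turned sign under some alternative, all between -0.09 and 0.10 as reported. The metallothionein median in the chip went from 0.10 to -0.03 without chip TiO2-control replicate 4. On Transwell 2981 genes differed between the control groups (1387 higher, 1594 lower). Other fits gave 3610 (intensity trend), 2943 (robust prior), 2853 (array weights), 3110 (median centring), 3124 (repeated quantile normalisation) and 3667 (14548 bright genes), and 2139 to 2786 when 1 array was left out. Over all 53617 probe sets 5.49% passed.

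Fitting all 8 groups gave 1486 genes (644 higher, 842 lower), with 13 DNA replication genes and 1 NF-kB gene lower, and 5 ribosome biogenesis genes and 9 H/ACA RNAs higher. The exposed comparison then gave 1866 (893 higher, 973 lower). The 2 control groups alone gave 1953 genes, 854 of them higher, with 15 DNA replication and 5 NF-kB genes lower, and 6 endoplasmic reticulum chaperones and 9 ribosome biogenesis genes higher.

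The labels do not tie the replicate numbers to a shared culture, and 1 of 4 arrays had its best match in the array of the same number. With the replicate number as a block in the 2 control groups 847 genes passed (335 higher, 512 lower). Lower members were then 9 for DNA replication, 3 for mitosis, 4 for cholesterol synthesis, 6 for glycolysis and 3 for NF-kB. Higher members were 5 endoplasmic reticulum chaperones, 3 ribosome biogenesis genes and 13 H/ACA RNAs. Of 172 listed genes that passed, 101 also passed with the block, 112 with all 8 groups and 152 with the control groups alone. This block takes up residual degrees of freedom.

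With 1 array left out, lower NF-kB members ranged from 5 to 9 and higher ribosome biogenesis members from 9 to 17. In the chip the control groups alone gave 0 genes by limma (0 higher, 0 lower, 1352 at an unadjusted p below 0.05). Array weights gave 58 (13 higher, 45 lower), bright genes 20 (7 higher) and leaving out TiO2-control replicate 4 317 (133 higher, 184 lower). The test between systems gave 363 higher genes with array weights. The causes were not tested. Signal near background limits 7647 genes whose means lay below the array medians in both control groups.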
